A study of Mus musculus with 3 samples.

Results

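The TGF-beta and BMP pathway genes described here are a fixed set of 53 genes, made of the ligands, latent binding proteins, receptors, SMADs, antagonists and targets of this signalling family. They were taken by mouse symbol from the tables of 29267 genes deposited for each library, and all 53 were found there with at least 1 count in each MEF sample. MEFs, the fibroblasts from which reprogramming starts, came from the OG2 and the ICR strain, both at passages 3 to 5, with 1 library each. OG2 is the label of a strain, and the study describes its MEFs as isolated from embryos with an Oct4-GFP transgenic allele, which reports pluripotency. ESCs of the R1 line, labelled naive and at passage 30, gave 1 further library and served as the end point of reprogramming. No treatment is given in the labels of these samples, and a cell line such as R1 is 1 isolate, so its library stands for no other ESC line. The comparison asks how far this signalling family differs between the start and the end point of reprogramming.

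Ligands of the TGF-beta family bind pairs of type I and type II receptor kinases at the cell surface, and the type I receptor then phosphorylates SMAD proteins, which enter the nucleus with Smad4. TGF-beta and activin act mainly through Smad2 and Smad3, BMPs mainly through Smad1, Smad5 and Smad9, and Smad6, Smad7, Smurf1, Smurf2, Ski and Skil restrain the signal. In fibroblasts TGF-beta is known for driving matrix production, and in mouse ESCs BMP is known for sustaining self-renewal through the Id genes.

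Depth was 5149312 counts for OG2, 4590619 for ICR and 1717838 for the ESC-labelled library. A count of 3, used as the floor for a gene at 0, corresponded to 0.532, 0.580 and 2.15 counts per 1000000 (CPM) after TMM scaling, a scaling that assumes most genes do not differ. Of 19 ESC marker genes, 11 had a count in the ESC-labelled library, among them Pou5f1 with 71 and Nanog with 51 counts, and 6 had a count in OG2 and 6 in ICR MEFs. In the ESC-labelled library 9 of the 19 were at least 1 log2 unit higher and 1, Klf2, was lower, with 2 counts against 63 and 91 in MEFs. Zfp42, Esrrb, Dppa5a, Dppa4, Dppa2, Utf1, Lin28a and Dnmt3l had 0 counts in the ESC-labelled library, so it is named by its label throughout. All 14 fibroblast markers had counts in it, and their summed level was 4584 CPM against 34599 in OG2 and 36216 in ICR MEFs, or 12.9% of the MEF mean. The summed level of 10 epithelial markers was 521 CPM against 30.2 and 32.3, with Krt5, Krt15, Trp63, Cldn4 and Dsg3 at 0. Krt14 gave 297 and Krt8 gave 127 of the 521 CPM, and 4 of the 10 were at least 1 log2 unit higher in the ESC-labelled library. The part of these markers in the results was not tested. In these bulk samples fewer cells of a type and less RNA per cell cannot be told apart. With 1 library on the ESC side, the spread could be measured between MEFs alone, whose strains differ. Intervals given below cover counting error only and hold no spread between samples. Reads not tagged by molecule can also be copies of each other, which these intervals do not cover.

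Most of the pathway was lower in the ESC-labelled library. Of the 48 members that passed the filter on low counts, 37 were lower and 2 were higher at an edgeR adjusted p under 0.05, and 9 did not pass this threshold. These are 77.1% and 4.17% of the members tested, where the background of all 12663 genes tested was 36.0% lower and 31.4% higher, or 67.5% in either direction. The median difference of the 48 members on the log2(CPM + 1) scale was -2.03, against -0.41 for all genes tested. The median was -1.93 with the members at 0 counts in the ESC-labelled library set to the bound that a count of 3 gives. Of the 53 members, 37 were 1 log2 unit or more below both MEF samples and 2 at least 1 log2 unit above both, with a background of 25.9% and 21.9% of the 17810 genes with a count. Acvr2b and Id1 were the members called higher, and the direction of Id1 turned with TPM in place of CPM. Of the 48 members tested, 16 had fewer than 10 counts in the ESC-labelled library. Bmp5, Gdf6 and Gdf10 had 0 there, Chrd had 1, and Inhba, Acvr1b and Bmpr1b had 3 each. These genes passed the filter through the MEF samples only, while Acvr2b passed through the ESC-labelled library. The counts of calls therefore describe the list and do not test it. DESeq2 did not call 11 of the 37 members lower, namely Tgfb1, Ltbp1, Fstl3, Acvr1b, Bmp5, Gdf6, Chrd, Bmpr1b, Smad5, Smad6 and Id2. Bmp2, Bmp6, Bmp7, Gdf5 and Nog stayed under the filter. The fibroblast marker list moved the same way, and its part in these falls was not tested. Relative to MEFs, 16 of the 48 members were at a smaller fraction of their level than the fibroblast list and 32 at a larger one.

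**Figure D1:**
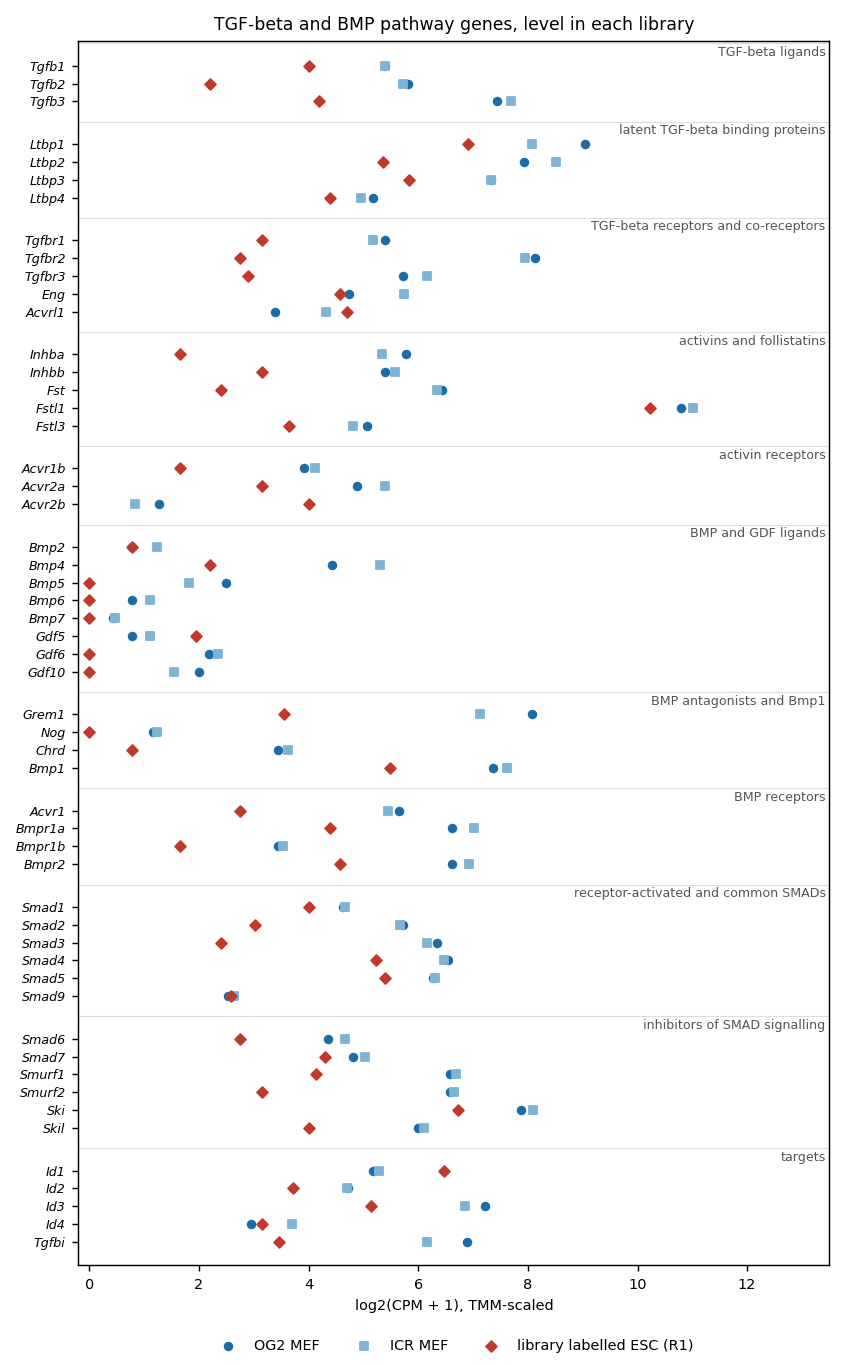
Level of each of the 53 members as log2(CPM + 1) with TMM scaling, in OG2 MEFs (circles), ICR MEFs (squares) and the ESC-labelled library (diamonds), grouped by role. The diamonds lie to the left of both MEF symbols for most genes, and to their right for Acvr2b, Id1, Acvrl1 and Gdf5. With TPM, Id1 is below both MEF samples (log2 difference -0.32), and Acvrl1 (-0.27) and Gdf5 (0.03) are between them.

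**Figure D2:**
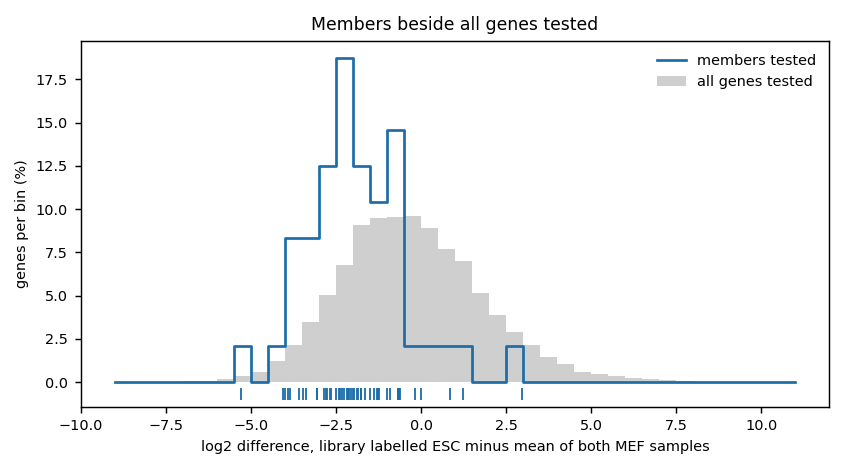
Share of genes per bin of the log2(CPM + 1) difference between the ESC-labelled library and the mean of both MEF samples, for all 12663 genes tested (grey bars) and for the 48 members tested (blue line, with 1 tick per member). The median lies at -2.03 for the members and at -0.41 for all genes tested.

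Each of the 3 TGF-beta ligand genes was called lower in the ESC-labelled library, beside 36.0% of all genes tested. Tgfb3, on chromosome 12 of GRCm38 from 86056745 to 86079041, had 971 and 1064 counts in OG2 and ICR MEFs against 24 in the ESC-labelled library. On the log2(CPM + 1) scale this was 7.57 ± 0.18 (SD, n = 2) in MEFs against 4.19, a difference of -3.38 with an edgeR adjusted p of 6.75e-06. Tgfb2 had 313 and 268 counts in MEFs against 5 in the ESC-labelled library, a difference of -3.58 (edgeR adjusted p = 1.99e-05). Tgfb1, whose product is the most widely studied of these ligands, was closest to MEFs, with 232, 212 and 21 counts and a difference of -1.39 (edgeR adjusted p = 0.00207), which DESeq2 did not call. The order of the ligands per length differed, which rests on 21 counts of Tgfb1 and 24 of Tgfb3 in the ESC-labelled library. Whether counting error covers this was not tested. By TPM, which divides by length, Tgfb3 made up 62.8% and 66.5% of the ligand transcripts in OG2 and ICR MEFs but 39.2% in the ESC-labelled library, where Tgfb1 made up 54.7% of a sum of 9.60 TPM.

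Ltbp1 to Ltbp4 encode matrix proteins named as latent TGF-beta binding proteins, though not each of them is known to bind TGF-beta. Of these 4 genes 3 were called lower, beside 36.0% of all genes tested. Ltbp2 showed the largest difference of them, with 1366 and 1880 counts in OG2 and ICR MEFs against 56 in the ESC-labelled library (log2 difference -2.86, edgeR adjusted p = 5.87e-05). Ltbp3 had 899, 826 and 78 counts, and its CPM in the MEF samples was nearly equal. Ltbp1 had 2963, 1382 and 167 counts, a log2 difference of -1.64 with a MEF SD of 0.69 (edgeR adjusted p = 0.00524), and this call was lost with DESeq2. The gene length that RSEM weights by its transcripts was 5007 and 4695 bases for Ltbp1 in OG2 and ICR MEFs and 1527 bases in the ESC-labelled library. Reads of the latter were thus assigned to shorter Ltbp1 transcripts, and by TPM, at 218, 127 and 61.2, the gap was smaller than by CPM. Ltbp4 did not pass the test (log2 difference -0.67, edgeR adjusted p = 0.111), though it did without the low-count filter (0.0362).

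Among the receptors, Tgfbr2 had the largest fall of all 53 members. Tgfbr2 (ENSMUSG00000032440) encodes the type II receptor that binds TGF-beta, and lies on the minus strand of chromosome 9 of GRCm38 from 116084293 to 116175360. OG2 and ICR MEFs had 1567 and 1268 counts of it, against 8 in the ESC-labelled library. The level was 8.03 ± 0.13 (SD, n = 2) in MEFs and 2.75 in the ESC-labelled library on the log2(CPM + 1) scale, and the edgeR adjusted p was 1.05e-06. Its CPM was 45.7-fold lower than in pooled MEFs (95% counting interval 23.2 to 106). Under the settings tried its log2 difference lay between -5.99 and -3.97. Tgfbr1, the type I partner, had 230, 182 and 11 counts and a log2 difference of -2.13, and Tgfbr3, a co-receptor that presents ligand, had 292, 366 and 9 counts and -3.05. With a correction of GC content and length the difference of Tgfbr1 was -0.47. Both were called by edgeR (adjusted p = 0.000445 and 0.00012).

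Acvrl1 and Eng, a receptor and a co-receptor best known from endothelial cells, were not called, unlike the other TGF-beta receptors. Acvrl1 had 53 and 98 counts in OG2 and ICR MEFs against 35 in the ESC-labelled library, which lies above both MEF samples after scaling, with a log2 difference of 0.86 (edgeR adjusted p = 0.074). This difference turned to -0.27 with TPM in place of CPM, and it passed the edgeR threshold without a low-count filter or when scaled by median-of-ratios size factors. Eng had 145, 272 and 32 counts and a log2 difference of -0.66 (edgeR adjusted p = 0.289), smaller than the MEF SD of 0.71. It was -1.96 with TPM, and edgeR called it lower without the low-count filter (adjusted p = 0.032). The summed level of 5 endothelial markers was 82.5 CPM in the ESC-labelled library and 11.5 and 11.2 CPM in OG2 and ICR MEFs. Pecam1 alone gave 64.5 of the 82.5 CPM, with 90 counts, and had 0 in either MEF sample. Of the 5 markers, 3 were at least 1 log2 unit higher in the ESC-labelled library and 1, Kdr, was lower. Cdh5 and Kdr had 0 counts there, and Kdr had 61 and 54 in the MEF samples. The sum thus rests mostly on 1 gene, and its part in the values of Acvrl1 and Eng was not tested.

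Acvr2b, a type II receptor for activins and related ligands, was the only member 1 log2 unit or more above both MEF samples under every setting tried. Acvr2b (ENSMUSG00000061393, plus strand of chromosome 9 of GRCm38, 119402118 to 119434995) had 8 and 4 counts in OG2 and ICR MEFs against 21 in the ESC-labelled library. Its CPM was 1.42, 0.774 and 15.1 in the same order, 13.6-fold higher than in pooled MEFs (95% counting interval 6.37 to 30.2), and the edgeR adjusted p was 0.000805. Acvr2a, the related type II receptor, went the other way with 160, 211 and 11 counts (log2 difference -1.98, edgeR adjusted p = 0.00249), a fall that became -0.12 after correcting for GC content and length. Acvr1b, the activin type I receptor, had 80, 85 and 3 counts, a 7.10-fold lower CPM with a counting interval of 2.39 to 34.8. As a share of the TPM of Tgfbr2, Acvr2a, Acvr2b and Bmpr2, the type II receptors, Acvr2b stood at 1.23% and 0.711% in OG2 and ICR MEFs and at 60.3% in the ESC-labelled library. Tgfbr2 went from 80.6% and 75.4% to 7.81%. The sum of the type II receptors was 152 and 153 TPM in MEFs and 11.4 in the ESC-labelled library, so this change of order took place at a low level.

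**Figure D3:**
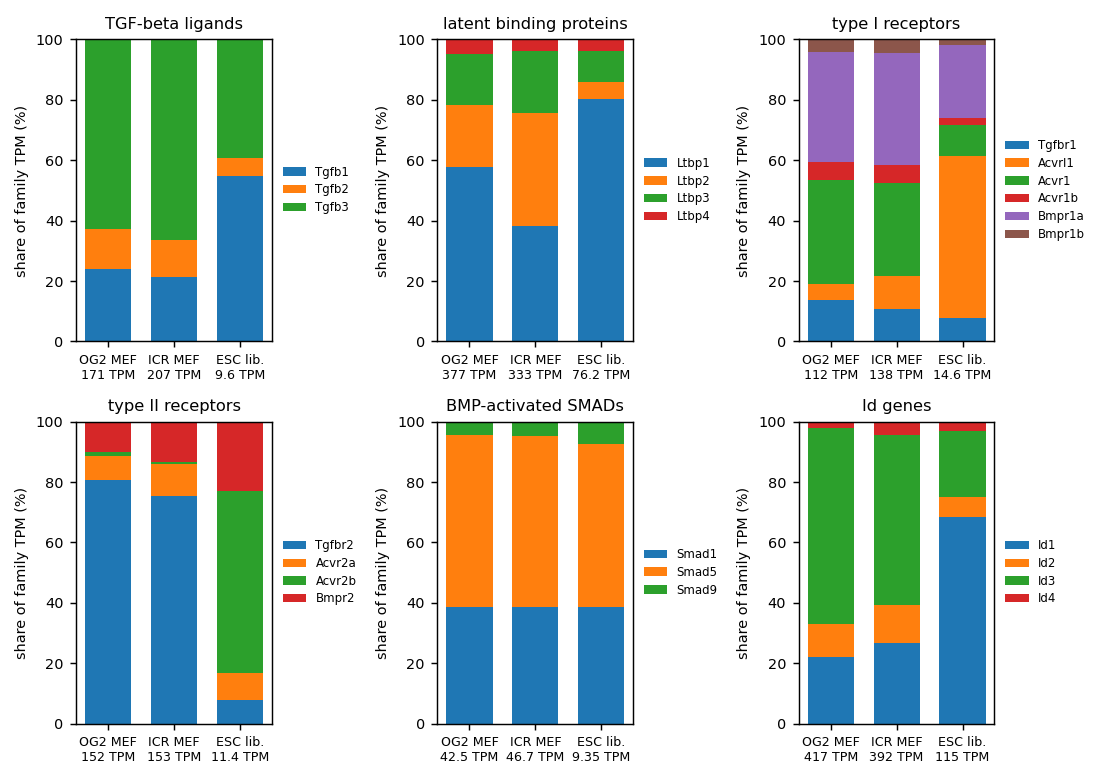
Share of each gene in the TPM of its family, in percent, for OG2 MEFs, ICR MEFs and the ESC-labelled library (ESC lib.), with the family's summed TPM under each bar. Acvr2b and Acvrl1 make up most of the type II and type I receptor transcripts in the ESC-labelled library, whereas Smad1, Smad5 and Smad9 keep similar shares in all libraries.

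The promoters of Tgfbr2, Smad3, Acvr2b and Smad6 are shown because these genes include the largest fall, the largest rise and a transducer and an inhibitor of the signal. Each run comes from the 250 bases before the gene start in RefSeq on GRCm38.p6 and is written 5′ to 3′ on the strand of the gene. Those of Tgfbr2, Smad3 and Smad6 are whole, and that of Acvr2b stops after 190 bases, where the GENCODE gene begins. Capitals mark GGAGCC, a GC-rich SMAD element, or its reverse complement. The printed runs are chr9:116175364-116175613 on the minus strand for Tgfbr2, chr9:63757995-63758244 on the minus strand for Smad3, chr9:119401928-119402117 on the plus strand for Acvr2b and chr9:64022060-64022309 on the minus strand for Smad6.
Tgfbr2: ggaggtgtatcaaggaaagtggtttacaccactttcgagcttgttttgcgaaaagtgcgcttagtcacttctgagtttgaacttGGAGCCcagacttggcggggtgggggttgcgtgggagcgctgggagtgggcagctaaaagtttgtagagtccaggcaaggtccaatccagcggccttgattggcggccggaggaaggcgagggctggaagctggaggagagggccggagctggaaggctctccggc
Smad3: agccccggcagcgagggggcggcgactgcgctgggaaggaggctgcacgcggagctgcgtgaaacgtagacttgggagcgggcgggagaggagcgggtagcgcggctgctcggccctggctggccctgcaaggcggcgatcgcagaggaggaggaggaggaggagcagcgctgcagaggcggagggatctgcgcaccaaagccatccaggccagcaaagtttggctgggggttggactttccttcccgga
Acvr2b: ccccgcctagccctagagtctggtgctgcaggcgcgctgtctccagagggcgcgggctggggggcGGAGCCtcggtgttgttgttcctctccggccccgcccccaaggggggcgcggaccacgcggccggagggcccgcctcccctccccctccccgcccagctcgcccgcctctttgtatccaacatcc
Smad6: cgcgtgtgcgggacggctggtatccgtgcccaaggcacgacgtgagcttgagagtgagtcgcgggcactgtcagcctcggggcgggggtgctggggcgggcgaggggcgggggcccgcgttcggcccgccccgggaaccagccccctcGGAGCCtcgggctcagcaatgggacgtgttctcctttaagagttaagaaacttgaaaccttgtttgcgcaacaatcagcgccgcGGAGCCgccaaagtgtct
Over the whole 250 bases, GGAGCC stood 3 times in the window of Acvr2b, 1 of them in the printed run, 2 times in that of Smad6, 1 time in that of Tgfbr2 and 0 times in that of Smad3. The window of Tgfbr2 had the lowest GC content, 58.4%, against 69.2% for Smad3, 72.8% for Acvr2b and 66.8% for Smad6. RefSeq windows of 250 bases before the start were found for 38 of the 53 members, 46 in all, and 4 short SMAD motifs, none of which contains another, were searched in them on both strands. GGAGCC was present in 50% of the member windows and in 26.0% of all 32851 windows of this length. A second GC-rich element, GGCGCC, was present in 30.4% and 9.59%. The CAGA-type motif CAGACA was found in 15.2% of the member windows and 17.1% of all. The palindrome GTCTAGAC was in 0 of the 46 and in 0.167% of all. The member windows also had more GC, with a median of 67.4% against 52.4%, and a match is only a description of these letters.

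Activins are dimers of the products of Inhba and Inhbb, and Fst encodes follistatin, which binds and blocks them. All 3 genes were called lower, beside 36.0% of all genes tested. Fst had 483 and 415 counts in OG2 and ICR MEFs against 6 in the ESC-labelled library, a log2 difference of -3.99 (edgeR adjusted p = 6.03e-06). Inhba had 305, 203 and 3 counts, a 21.9-fold lower CPM with a counting interval of 7.44 to 106. Inhbb had 231, 243 and 11 counts and a log2 difference of -2.34 (edgeR adjusted p = 0.000197). The ligand genes and their inhibitor fell together, each by more than the MEF samples differed. Fstl1, a secreted relative of follistatin, had the highest TPM of all members in each library, at 995, 1255 and 233. Its counts of 9937, 10648 and 1674 gave a log2 difference of -0.67 that missed the edgeR threshold (adjusted p = 0.0517). It was called lower by DESeq2 (adjusted p = 0.0491) and by edgeR without a filter (0.00447), and it became 0.12 after correcting for GC content and length. In TPM percentiles among the genes with a count, Fstl1 stood at 99.4, 99.5 and 97.1, so its place in the ranking changed little. Fstl3, a further activin-binding protein, had 183, 140 and 16 counts (log2 difference -1.30, edgeR adjusted p = 0.00969). DESeq2 did not call it (adjusted p = 0.171), and it was less than 1 log2 unit from a MEF sample with median-of-ratios size factors or a pseudocount of 5.

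BMP and GDF ligand genes had few counts in every library. Bmp4 was the main one in MEFs, with 116 counts in OG2 and 198 in ICR MEFs and 5 in the ESC-labelled library, and the log2 difference was -2.67 with a MEF SD of 0.61 (edgeR adjusted p = 0.00362). By TPM it made up 85.2% and 92.9% of the transcripts of Bmp2, Bmp4, Bmp5, Bmp6 and Bmp7 in MEFs. Bmp5 had 26, 13 and 0 counts and was at least 1.66-fold lower in the ESC-labelled library when a count of 3 is taken there as the floor. On the same basis Gdf6, with 20, 21 and 0 counts, was at least 1.77-fold lower, and Gdf10, with 17, 10 and 0 counts, at least 1.15-fold lower. Their edgeR adjusted p-values were 0.0401 for Bmp5, 0.0257 for Gdf6 and 0.0742 for Gdf10, which passed without the low-count filter (0.045), and DESeq2 called none of these 3. Bmp2, Bmp6, Bmp7 and Gdf5 had between 0 and 7 counts in each library, and a difference was not detectable at this depth.

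Of the secreted BMP antagonists among the members, Grem1 and Chrd were lower and Nog was not tested. Grem1, which encodes gremlin and sequesters BMPs, had 1523 and 718 counts in OG2 and ICR MEFs against 15 in the ESC-labelled library. Its log2 difference was -4.05 with a MEF SD of 0.68 (edgeR adjusted p = 0.000141), and its CPM was 19.3-fold lower than in pooled MEFs. Chrd, which encodes chordin, had 56, 59 and 1 counts, a 14.8-fold lower CPM with a counting interval from 2.61 to 591. Nog, which encodes noggin, had 7, 7 and 0 counts and was under the filter. Bmp1, a protease that cleaves chordin and procollagens and is no BMP ligand, had 924, 1010 and 61 counts and a log2 difference of -2.01 (edgeR adjusted p = 7.5e-05).

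The 4 BMP receptor genes were all called lower by edgeR, and all but Bmpr1b by DESeq2 (adjusted p = 0.207 for Bmpr1b). Of all genes tested, edgeR called 36.0% lower. Acvr1, a type I receptor, had 276 and 220 counts in OG2 and ICR MEFs against 8 in the ESC-labelled library (log2 difference -2.79, edgeR adjusted p = 8.68e-05). Bmpr1a, the leading type I receptor of MEFs by TPM, had 550, 667 and 28 counts (-2.43), and the type II receptor Bmpr2 had 548, 622 and 32 counts (-2.19). Bmpr1b had only 56, 55 and 3 counts, a 4.78-fold lower CPM with a counting interval of 1.59 to 23.5. Of these, only Acvr1 was still 1 log2 unit or more below both MEF samples after correcting for GC content and length, where it was -2.01, and Bmpr1a, Bmpr1b and Bmpr2 were -0.71, -0.35 and -0.50. Among the type I receptors by TPM, Bmpr1a held 36.5% and 37.1% in MEFs and 23.9% in the ESC-labelled library, and the share of Acvrl1 was 5.36% and 11% in MEFs and 53.7% in the ESC-labelled library.

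Of the 6 receptor-activated and common SMAD genes, 4 were called lower, beside 36.0% of all genes tested. Smad3 had 451 and 363 counts in OG2 and ICR MEFs against 6 in the ESC-labelled library, a log2 difference of -3.84 (edgeR adjusted p = 1.06e-05), and Smad2 had 290, 256 and 10 counts and -2.66 (6.16e-05). Both transduce TGF-beta and activin. The BMP-branch genes lay closer to MEFs. Smad1 had 133, 126 and 21 counts (-0.64, or 0.11 after correcting for GC content and length, edgeR adjusted p = 0.176) and Smad9 had 27, 27 and 7 counts (0.0037, edgeR adjusted p = 0.815), whose difference ran from -0.84 with TPM to 1.67 after that correction. Smad5 had 429, 406 and 57 counts and was called lower (-0.90, edgeR adjusted p = 0.00775), a call that DESeq2 did not make and a direction that turned to 0.69 after correcting for GC content and length. The difference between the branches was not tested. Within the BMP branch, Smad1, Smad5 and Smad9 made up 38.5%, 57.1% and 4.36% of its TPM in OG2 MEFs, 38.6%, 56.8% and 4.63% in ICR MEFs and 38.6%, 54.1% and 7.27% in the ESC-labelled library. The proportions of these 3 genes were thus similar in all libraries while their sum went from 42.5 and 46.7 TPM to 9.35. Smad4, the partner shared by both branches, had 518, 455 and 51 counts (-1.28, edgeR adjusted p = 0.000847) and held the largest share of all SMAD transcripts in each library, at 25%, 28.0% and 44.9%.

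Of the 6 inhibitors of SMAD signalling, 5 were called lower, beside 36.0% of all genes tested. Smurf2 and Smurf1 encode ubiquitin ligases that mark receptors and SMADs for breakdown. Smurf2 had 535, 514 and 11 counts (log2 difference -3.47, edgeR adjusted p = 6.62e-06) and Smurf1 had 532, 530 and 23 counts (-2.51, 2.52e-05), and the MEF samples were nearly equal for both. Skil, a nuclear co-repressor, had 353, 353 and 21 counts (-2.05), and its relative Ski had 1309, 1405 and 147 counts (-1.25). Each edgeR fit and DESeq2 called both, whereas Skil was -0.27 and Ski -0.42 after correcting for GC content and length. The inhibitory Smad6 had 109, 126 and 8 counts (-1.75, edgeR adjusted p = 0.00582), and DESeq2 did not call it (adjusted p = 0.101). Smad7, the other inhibitory SMAD, had 153, 163 and 26 counts and did not pass (-0.62, edgeR adjusted p = 0.163).

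Among the targets, the Id genes were called in both directions. Id proteins lack a DNA-binding region and hold back other helix-loop-helix factors, and their genes are induced by BMP. Id1 had 199 and 197 counts in OG2 and ICR MEFs against 123 in the ESC-labelled library, which is 2.41-fold more CPM than in pooled MEFs (95% counting interval 1.95 to 2.95, edgeR adjusted p = 9.96e-05). The direction of Id1 rests on the scaling, since its log2 difference of 1.24 became -0.32 with TPM, at 91.6, 105 and 78.3 TPM, and 0.03 after correcting for GC content and length. In TPM percentiles among genes with a count it stood at 89.4, 90.3 and 92.8. Id3 had 828, 591 and 48 counts and was lower under every setting (log2 difference -1.88, edgeR adjusted p = 0.000217). Id2 had 143, 130 and 17 counts (-0.99, edgeR adjusted p = 0.0352) and was not called with median-of-ratios size factors or by DESeq2. Id4 had 38, 62 and 11 counts and stood between the MEF samples after scaling (edgeR adjusted p = 0.916). By TPM, Id3 led the family in MEFs with 64.7% and 56.4%, and Id1 led it in the ESC-labelled library with 68.4%. Tgfbi, a matrix protein gene named for its induction by TGF-beta, had 665, 366 and 14 counts and a log2 difference of -3.07 (edgeR adjusted p = 0.000314).

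**Figure D4:**
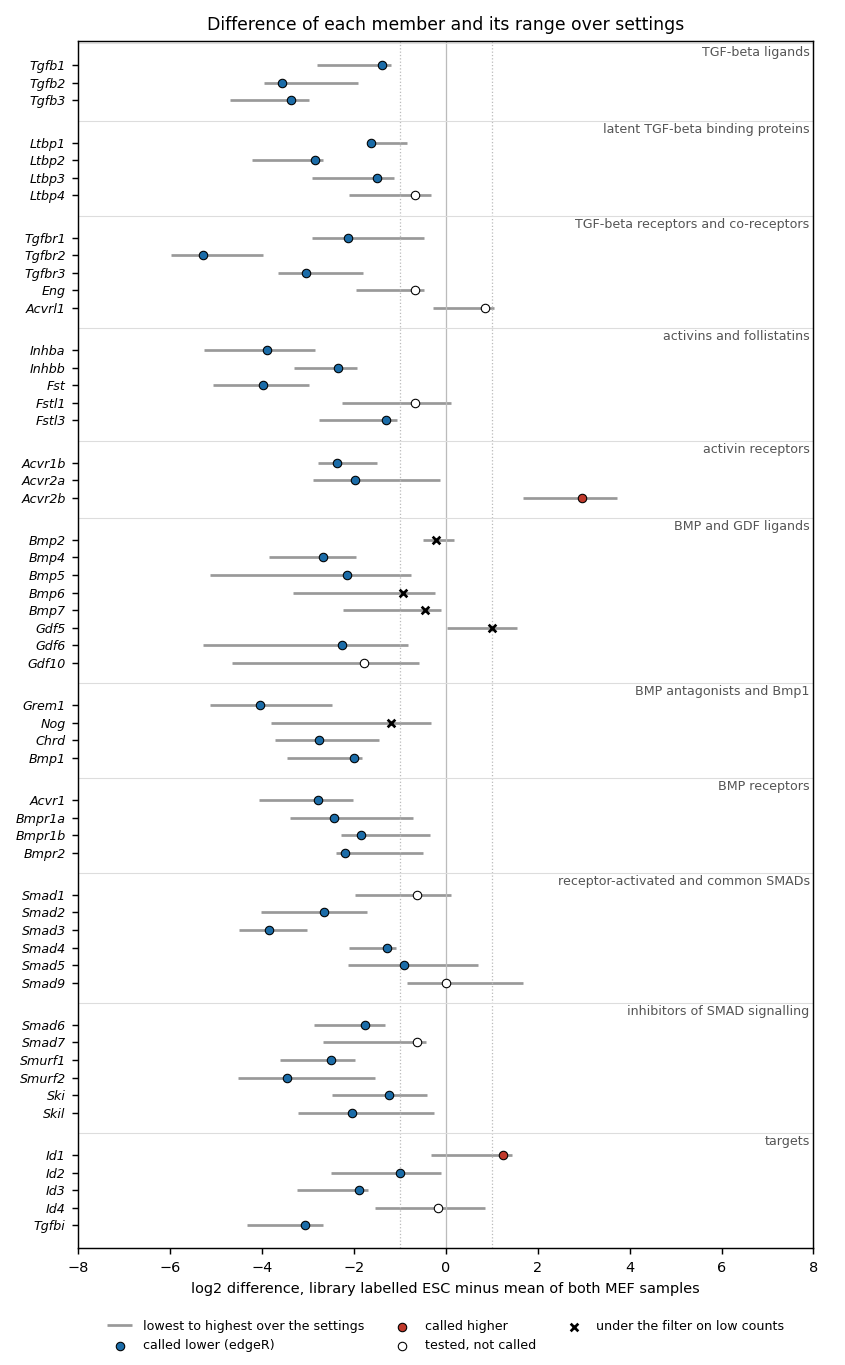
Difference in log2(CPM + 1) of each member between the ESC-labelled library and the mean of both MEF samples (points, filled where edgeR called them), with a grey bar from the lowest to the highest value over the settings that kept both MEF samples. Points lie left of 0 for most members, the bars of Id1, Smad5, Smad1, Smad9, Acvrl1, Id4, Fstl1 and Bmp2 cross 0, and the bar of Acvr2b runs from 1.68 to 3.72.

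The calls differed in how far they depended on the processing. Of the 39 members 1 log2 unit or more from both MEF samples, 25 were so under every setting of this rule of size, namely 24 lower and Acvr2b. Among them were all 3 TGF-beta ligand genes, Tgfbr2, Inhba, Inhbb, Fst, Grem1, Chrd, Bmp1, Smad2, Smad3, Smad4, Smad6, Smurf1, Smurf2, Id3 and Tgfbi. Of these 25, DESeq2 did not call Tgfb1, Acvr1b, Chrd and Smad6, and Acvr1b and Chrd had 3 and 1 counts in the ESC-labelled library. Long transcripts and transcripts of low GC content tended to have lower values in the ESC-labelled library. Spearman's rho across the 48 members tested, which share their libraries and are not independent, was -0.22 with length and 0.25 with GC content. Across all genes tested it was -0.35 and 0.23, and the median length was 3636 bases for the members and 2613 bases for all genes tested. The part of length and GC content in the calls of single members was not tested beyond the corrections given.

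Other genes of the pathway were read from the same fit. Of 99 further ligands, receptors, regulators and targets, 72 were tested, and 44 of these were lower and 6 higher at an edgeR adjusted p under 0.05, beside the 36.0% lower and 31.4% higher of all genes tested, and the median log2 difference of those tested was -1.90. Thbs1, whose product can activate latent TGF-beta, had the largest fall, with 32663 and 26998 counts in OG2 and ICR MEFs against 39 in the ESC-labelled library (log2 difference -7.57). Tll1, a protease related to Bmp1, had 337, 331 and 2 counts, a 43.1-fold lower CPM with a counting interval of 11.9 to 357. The largest rises that passed the test were those of Tab1, an adaptor of the TAK1 kinase, with 105, 115 and 234 counts (log2 difference 2.98), of Sostdc1, a BMP antagonist gene, with 1, 2 and 12 counts (2.91, a 31-fold higher CPM with a counting interval of 8.36 to 171), and of Inha, the inhibin alpha subunit gene, with 5, 12 and 13 counts (2.04). Of the 18 targets in this list, 12 were called lower and 1 higher. Of the 23 intracellular regulators tested, 12 were lower, 3 higher and 8 not called. Among genes known from pluripotent cells, the ligand gene Gdf3 had 10 counts in the ESC-labelled library and 0 in both MEF samples, at least 12.4-fold higher against a floor of 3 counts, and was not tested. Nodal, another such ligand, had 0 counts in each of the 3 libraries, and its co-receptor gene Tdgf1 had 0, 0 and 2 counts. Lefty1, of the same list, went the other way, with 18 counts in OG2 MEFs and 0 in ICR MEFs and the ESC-labelled library. Lefty2 had 0, 0 and 1 counts.

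The MEF samples were close to each other for most members. At least 1 log2 unit separated them for 1 of the 53 members, Eng, where the background was 2.76% of the 17810 genes with a count and 3.26% of those with at least 10 counts in a library. Eng had 145 counts in OG2 and 272 in ICR MEFs, an OG2 to ICR ratio of CPM of 0.489 (95% counting interval 0.397 to 0.600). Acvrl1, its partner in endothelial signalling, stood in the same direction at 0.496 (0.348 to 0.700), while the summed endothelial markers were nearly equal at 11.5 and 11.2 CPM, most of it Kdr. The 5 macrophage markers summed to 66.6 CPM in OG2 and 36.6 in ICR MEFs, with 34 and 5 counts of Adgre1 and 11 and 0 of Ptprc, and the part of this in the differences between the MEF samples was not tested. Bmp4 was also lower in OG2, at a ratio of 0.537 (0.424 to 0.679), and so were Id4 at 0.562 and Ltbp2 at 0.667. In the other direction, Ltbp1 had a ratio of 1.97 (1.84 to 2.10), Grem1 of 1.95 (1.78 to 2.13) and Tgfbi of 1.67 (1.47 to 1.90). The counting interval left out 1 for 19 of the 47 members with at least 10 counts in a MEF sample, 6 higher in OG2 and 13 higher in ICR, against 25.9% of the 12185 genes with such counts. With 1 library per strain, strain and sample cannot be told apart, and no test was made.

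**Figure D5:**
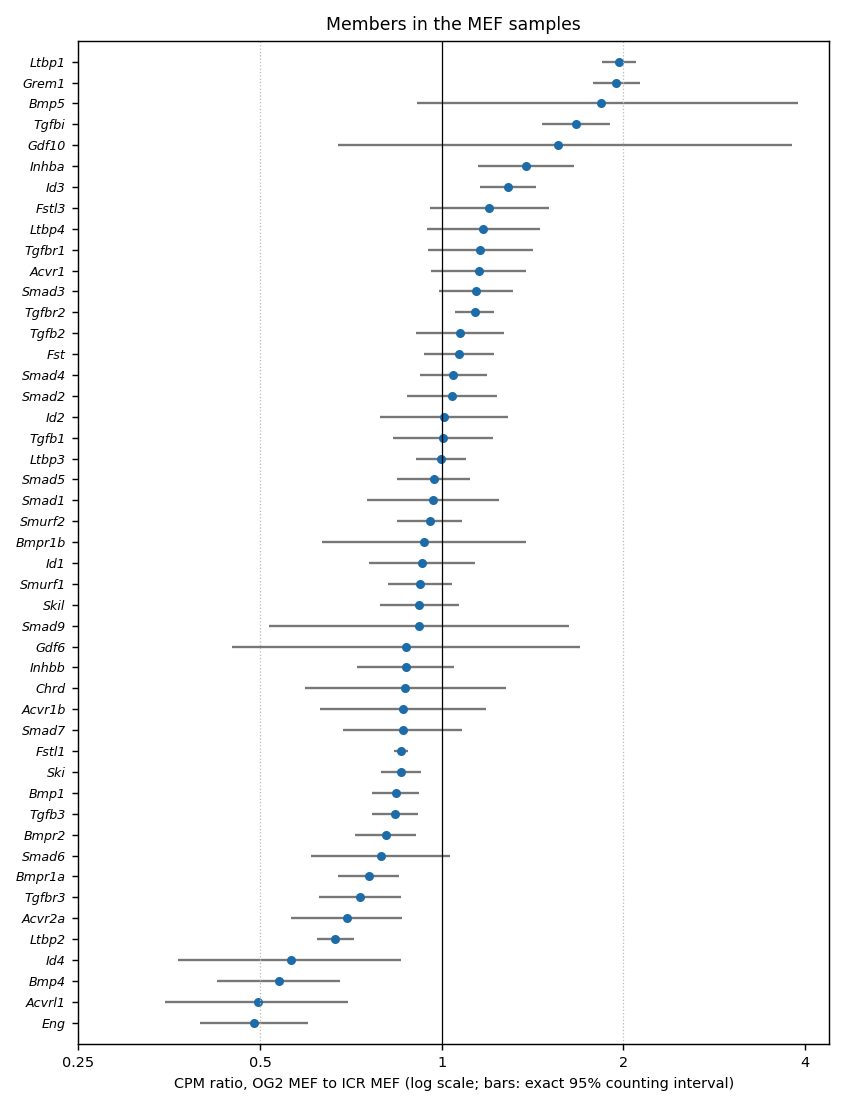
Ratio of CPM in OG2 MEFs to CPM in ICR MEFs on a log scale for the 47 members with at least 10 counts in a MEF sample, with exact 95% counting intervals as bars. Ltbp1 and Grem1 stand highest at 1.97 and 1.95, and Eng and Acvrl1 lowest at 0.489 and 0.496.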

How the data were processed

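RNA-seq libraries, 1 each, came from OG2 MEFs, ICR MEFs and R1 ESCs, and samples were grouped by cell type. Per the paper, reads were trimmed with TRIMMOMATIC and aligned with bowtie2 to transcripts of an Ensembl annotation, and the submitters' processing notes name mm10. The sequencer in the sample labels is not the one in the paper, and whether these steps cover these libraries was not stated. The authors' RSEM run gave an expected count per gene, an estimate that divides reads shared by several genes. The same deposited tables hold TPM, scaled by length and to a fixed sum, and gene lengths. A GC-content normalization is named in the paper, and whether the deposited columns precede it was not stated, so they were read as if they did. Whether library strand was used in counting is not given in the sources used here.

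Expected counts were rounded to whole numbers. CPM was scaled by TMM factors (edgeR 4.0.16, R 4.3.3) and given as log2(CPM + 1). The log2 difference is the value in the ESC-labelled library less the MEF mean. A gene was counted by size where it was 1 log2 unit or more away from each MEF sample. Since no test is named in the paper for this comparison, edgeR's quasi-likelihood test with filterByExpr, TMM on the genes kept and Benjamini-Hochberg adjustment over 12663 genes was run. It had 1 residual degree of freedom, from the MEF pair. It was run on simulated data where most genes did not differ, unlike these data. Its rate of false calls here is not known. Ratios carry exact conditional binomial 95% intervals. A gene at 0 was given a floor of 3 counts. Symbols and positions are of GENCODE M21, matched by identifier for 98.3% of genes, and promoter windows are RefSeq's (GRCm38.p6). For 40 of the 46 windows the bases after the RefSeq start lie in a GENCODE transcript of the gene.

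The members and the lists were chosen with earlier results of these data known. Values are given in full for members called by edgeR and by size, up to 30 by size of change, for members at 0 in one cell type with at least 10 counts in the other, and for members 1 log2 unit apart between MEF samples. Others are given as examples or ranges, and where more were named they were chosen after their values were seen. Of the other pathway genes, 99 of 100 listed were matched, and the 3 largest rises and falls were to be named, of which 1 fall is not reported here. Cell type marker lists were summed as CPM in OG2 MEFs, ICR MEFs and the ESC-labelled library. The sums were 71.2, 98.9 and 250 for the ESC list, 30.2, 32.3 and 521 for epithelium, 315, 270 and 27.3 for primitive endoderm, 4.08, 4.64 and 20.8 for trophoblast, 66.6, 36.6 and 23.7 for macrophages and 102, 131 and 30.1 for neural cells. Python 3.11.15 with scipy 1.17.1, pandas 2.3.3 and numpy 2.4.6 gave the other values. The alternatives were median-of-ratios size factors, a pseudocount of 0.1 or of 5, TPM, a minimum of 10 counts, no filter, GC-content correction over 20 bins, also followed by length (chosen after seeing the data), DESeq2 1.42.0 and the omission of either MEF sample.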

Additional observations from a re-analysis of the deposited data

How the results depend on the processing

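The 37 members lower by edgeR ranged from 27 with DESeq2 to 41 without a filter on low counts, and the 2 higher ranged from 2 to 3. By size, the 37 lower ranged from 28, with a correction of GC content and then length that was chosen after seeing the data, to 45 with TPM, and the 2 higher became 1 with TPM. Without OG2 MEFs, 2 members were higher and 39 lower with a median difference of -2.07, and without ICR MEFs 4 were higher, Acvrl1 and Gdf5 among them, and 38 lower with a median of -2.05. The median of -2.03 was -2.22 and -1.55 with pseudocounts of 0.1 and 5, -1.84 with median-of-ratios size factors, -2.83 with TPM, -1.57 with the GC-content correction and -1.37 with GC content and length. Over all genes with at least 10 counts in a library these settings moved the median by -0.035, 0.13, 0.17, -1.11, 0.43 and 0.42, since both corrections also set it near 0. The members apart between MEF samples, 1, were 2 and 0 with those pseudocounts and 2 with TPM. Called members that changed sign were Id1, at -0.32 with TPM, and Smad5, at 0.69 with GC content and length, and among single members 215 values moved by more than the MEF SD and 255 did not. What caused these shifts was not tested here.

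The edgeR test was not run without a MEF sample, since no residual degree of freedom would remain. The depth of 1717838 counts limits the falls, and 21 of 53 members had fewer than 10 counts in the ESC-labelled library. No paired analysis was possible, since the labels pair no MEF sample with the ESC library.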
